A study of Mus musculus with 8 samples.

Results

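The cell surface receptors through which norepinephrine, acetylcholine, angiotensin II and endothelin act on the heart were examined in hearts that had lost Mettl3 from cardiomyocytes. Genes were taken by symbol, and all 7 of those sought (Adrb1, Adra1a, Adra1b, Chrm2, Agtr1a, Ednra and Ednrb) were found among the 23045 genes listed. Transcripts of Adra1a, the alpha-1A adrenergic receptor, fell to 70.7% of the WT mean in Mettl3 KO hearts, and those of Chrm2, the M2 muscarinic receptor, rose to 121.0%. The other 5 receptors did not pass the test.

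Total RNA from the hearts of 4 WT and 4 Mettl3 KO mice had been sequenced, and the study used the reads to compare polyA site usage. Mettl3 encodes the methyltransferase that writes N6-methyladenosine (m6A) on RNA, and it was deleted in heart muscle cells. All mice carried both Mettl3 alleles flanked by loxP sites (Mettl3lox/lox), were on a C57Bl6 background and received tamoxifen on 7 consecutive days. Per the study's methods they were 10 to 16 weeks old when injected, which is not the age at which the hearts were taken. Only the Mettl3 KO mice also carried alphaMHC-MerCreMer, a Cre recombinase that the alpha myosin heavy chain promoter drives in cardiomyocytes and that tamoxifen activates. The WT mice lacked this transgene, so effects of the transgene and of the deletion cannot be told apart, and cells other than cardiomyocytes keep Mettl3 by design. In whole hearts, fewer cells of a type and less RNA per cell cannot be told apart either. The replicates are separate libraries, and the labels do not say more on how the hearts were taken, so p-values measure the spread between these libraries.

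All 7 genes encode receptors with a chain that crosses the membrane repeatedly and that couples to heterotrimeric G proteins. The beta-1 receptor acts through Gs and adenylyl cyclase to raise heart rate and force, and the M2 receptor opposes it through Gi and through the potassium channel that acetylcholine opens in pacemaker and atrial cells. The alpha-1, angiotensin II type 1 and endothelin receptors couple mainly to Gq, phospholipase C beta and calcium release, a route known for its part in contraction of vessels and growth of cardiomyocytes.

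Normalized read counts added up to between 2839589 and 2916986 in each library. These stand for 2632249 to 3060941 sequenced reads, as estimated from the steps between low values, so that a count of 0 allowed a normalized read count of up to 2.78 to 3.33, which covers counting error only. Mettl3 itself, which the recombinase cuts, was lower in every Mettl3 KO library (68 to 78) than in any WT library (105 to 133), at 62.4% of the WT mean. Cardiomyocyte markers were abundant in all libraries, with a summed value of the 6 genes of 11851 to 13289. The 4 atrial genes summed to 175 to 320 in WT and 485 to 1022 in Mettl3 KO libraries, and among them Bmp10 was listed at 0 in all WT libraries and in Mettl3 KO library 1 but at 195, 158 and 358 in the other three. Mettl3 KO library 1 also stood apart from its group over all genes, with a chi-square per degree of freedom of 1.59 to 1.94 against the other three, which differed from each other by 1.109 to 1.175. Among WT libraries, library 3 differed from libraries 2 and 4 by 1.69 and 1.78, and the other pairs differed by 1.161 to 1.343. Without Mettl3 KO library 1 limma called the same number of receptors, 2. The log2 fold change was then -0.38 for Adra1a (limma adjusted p = 0.00513) and 0.26 for Chrm2 (limma adjusted p = 0.000382).

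Because m6A is placed most often at GGACT and related letters, the stretch of 21 bases around the GGACT nearest the stop codon is shown for each receptor, to place the letters the enzyme favours within each transcript. The capitals mark GGACT, and each line reads 5′ to 3′ along the transcript, with T for U. Sequence and positions come from an annotation of build GRCm38, which is not the build of the expression table.
Adra1a, 3′ UTR, chr14:66728332-66728352, plus strand: aagggaggGGACTttattttc
Adra1b, 3′ UTR, chr11:43775599-43775619, minus strand: gccggccgGGACTtaagtctc
Adrb1, coding exon, chr19:56722764-56722784, plus strand: cgagctctGGACTtcggtaga
Chrm2, coding exon, chr6:36524010-36524030, plus strand: ggacggtgGGACTgaaaactg
Agtr1a, 3′ UTR, chr13:30382080-30382100, plus strand: gcagcatcGGACTaaatggct
Ednra, coding exon, chr8:77671640-77671660, minus strand: gatgtgaaGGACTggtggctc
Ednrb, coding exon, chr14:103820012-103820032, minus strand: ttggttttGGACTacattggt

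GGACT was searched on the transcript strand alone, in the longest coding transcript of each gene, and at least 1 match is found in 87.6% of 21901 protein-coding genes and in 1.81% of windows of 21 bases. Chrm2 and Adra1b each had 6 matches, Agtr1a and Ednrb 5, Adra1a 4, and Adrb1 and Ednra 1. Per kilobase of transcript, Agtr1a had the most of the 7 with 2.27, more than 92.3% of genes, and Ednra the fewest with 0.276, against a median of 1.01 over all genes. The receptors that passed the test lay near that median, Adra1a with 0.934 and Chrm2 with 1.06 matches per kilobase. A match describes letters in a transcript, and m6A itself was not measured in these libraries.

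Chrm2 was the most abundant of the receptors. Per kilobase of annotated exon, its WT level was a normalized read count of 191.1 (183.4 to 201.2 over libraries), and 99.0% of the genes tested had a lower mean value before correction for length. Agtr1a, the receptor for angiotensin II, followed with 64.6 per kilobase (59.2 to 71.1), then Ednra with 53.7 (47.7 to 56.8). Next came Adrb1 with 44.1 (38.1 to 51.2) and Ednrb with 40.4 (33.5 to 47.6), and the alpha-1 receptors were the lowest, Adra1b with 23.7 (22.5 to 25.7) and Adra1a with 21.9 (19.5 to 23.6). Neighbours in this order whose WT libraries overlapped were Ednra and Adrb1, Adrb1 and Ednrb, and Adra1b and Adra1a. In Mettl3 KO hearts the order of the means was the same, but there Adra1a (11.7 to 17.3 per kilobase) lay below every library of Adra1b (25.4 to 30.5). The place of Adra1a depended on the length used. With the longest coding transcript in place of all annotated exons it had 44.7 per kilobase in WT, above Ednrb at 41.9 and Adra1b at 24.02. On that length Agtr1a (81.9) and Ednra (81.2), which were apart per kilobase of exon, had nearly the same WT mean.

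To ask which receptor transcripts differed between genotypes, all 20313 genes whose mean value reached 1 or more were fitted with limma on the log2(value + 1) scale, and p was adjusted over all of them. Called genes, those with an adjusted p under 0.05, made up 7.91% of the genes tested (958 or 4.72% higher and 649 or 3.19% lower). Of the 7 receptors 2 were called (28.6%), 1 in each direction, and all 7 had passed the filter on low values. When only genes with a mean of at least 10 were fitted, 12.2% of them were called, and again 2 of the 7 receptors. The groups did not overlap for the same 2 receptors, against 11.5% of the genes tested. The median log2 fold change of the 7 was -0.07, beside -0.01 for all genes tested. Leaving out each library in turn gave medians of the 7 from -0.13 (without WT library 2) to -0.04 (without Mettl3 KO library 2).

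**Figure D1:**
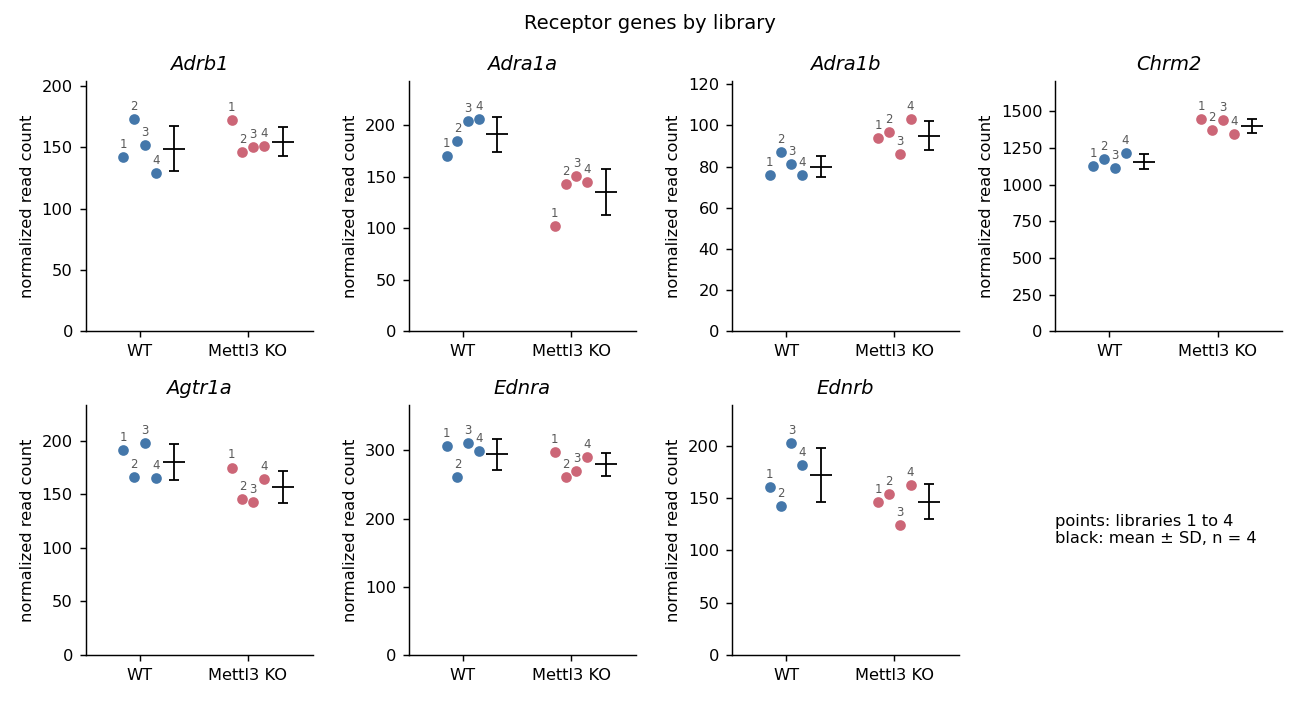
Normalized read count (vertical axes, each starting at 0) of the 7 receptor genes in 4 WT and 4 Mettl3 KO libraries. Points are libraries with their replicate numbers, and black bars are the mean ± SD, n = 4. The groups are apart for Adra1a and Chrm2 and overlap for the other receptors.

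Among the adrenergic receptors, the alpha-1 subtypes did not move together. Adra1a (ENSMUSG00000045875, mm39 chr14:66872700-67008617, plus strand), which couples to Gq in cardiomyocytes, had normalized read counts of 170, 185, 204 and 206 in WT against 102, 143, 151 and 145 in Mettl3 KO libraries. Every Mettl3 KO library lay below every WT library, and Mettl3 KO library 1 lay well below the other three. The mean was 191.2 ± 17.0 in WT and 135.2 ± 22.4 in Mettl3 KO (SD, n = 4). On the log2 scale the difference was -0.51 with an SE of 0.10 (limma adjusted p = 0.00293). The fall was called without any one library, with values from -0.57 to -0.38, and was smallest without Mettl3 KO library 1. It was not called when limma's mean-variance trend was left out (adjusted p = 0.127), which leaves the value itself at -0.51.

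The deposited description beside Adra1a names the alpha-1D subtype, but its identifier and symbol are those of Adra1a, and Adra1d has a row of its own. Of the 1607 called genes, 616 had a larger change in either direction than Adra1a.

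Adra1b (ENSMUSG00000050541, mm39 chr11:43665433-43792037, minus strand), the other main alpha-1 subtype of the mouse heart, had 76, 87, 81 and 76 in WT against 94, 97, 86 and 103 in Mettl3 KO libraries. The groups overlapped at their edges, with 1 Mettl3 KO library (86) just below the highest WT library (87). The means were 80.0 ± 5.23 and 95 ± 7.07 (SD, n = 4). The log2 fold change of 0.24 (95% interval 0.04 to 0.45) did not pass the test over all genes (limma unadjusted p = 0.0237, adjusted p = 0.156).

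The 2 subtypes set against each other describe the same values as a ratio. Normalized reads of Adra1a per read of Adra1b were 2.24, 2.13, 2.52 and 2.71 in WT against 1.08, 1.47, 1.76 and 1.41 in Mettl3 KO libraries. All WT libraries held more than 2 reads of Adra1a for each of Adra1b and no Mettl3 KO library did. Summed with Adra1d, a subtype of vessels that had 3 to 15 per library, the alpha-1 receptors came to 254, 284, 296 and 296 in WT against 210, 243, 244 and 263 in Mettl3 KO libraries, so that Mettl3 KO library 4 lay above WT library 1. These ratios and sums were chosen with the values known and carry no test.

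Adrb1 (ENSMUSG00000035283, mm39 chr19:56710631-56721545, plus strand), the main beta receptor of cardiomyocytes, had 142, 173, 152 and 129 in WT against 172, 146, 150 and 151 in Mettl3 KO libraries. The Mettl3 KO values lay within the range of the WT values. Its log2 fold change was 0.06 (95% interval -0.13 to 0.25, limma adjusted p = 0.792). It was 0.13 without WT library 2, -0.0066 without WT library 4 and 0.21 with the atrial genes as a covariate, so no direction can be given. That covariate, here and below, was the mean log2(value + 1) of Myl7, Sln and Bmp10 and left out Nppa. The interval leaves room for a level between 0.915 and 1.19 times that of WT.

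**Figure D2:**
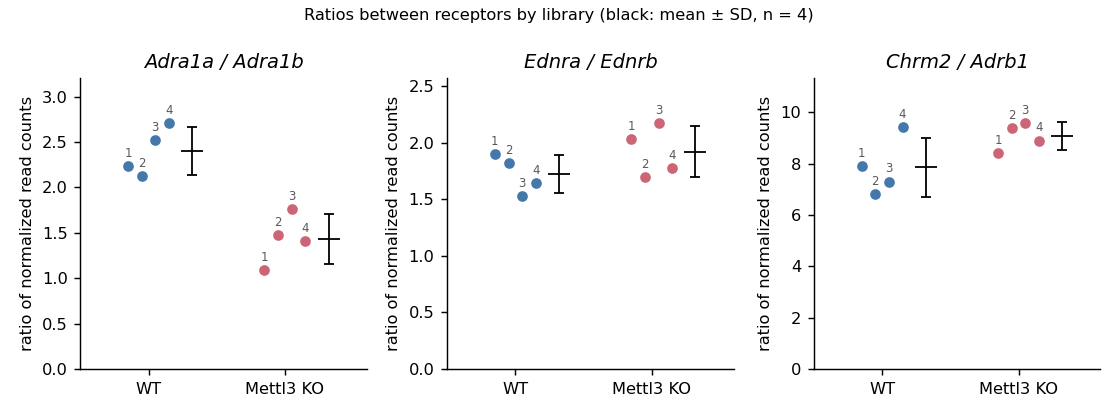
Ratio of normalized read counts (vertical axes, each starting at 0) of Adra1a to Adra1b, Ednra to Ednrb and Chrm2 to Adrb1 in each library. Points are libraries with their replicate numbers, and black bars are the mean ± SD, n = 4. The ratio of the alpha-1 receptors is 2.40 ± 0.266 in WT and 1.43 ± 0.275 in Mettl3 KO with no overlap, and the other ratios overlap.

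Chrm2 (ENSMUSG00000045613, mm39 chr6:36365019-36505349, plus strand) encodes the receptor through which the vagus nerve slows the heart. It had normalized read counts of 1124, 1176, 1110 and 1218 in WT against 1446, 1372, 1439 and 1344 in Mettl3 KO libraries. All Mettl3 KO libraries lay above all WT libraries, with a gap between the groups wider than the range within either. The means were 1157 ± 49.6 and 1400.2 ± 50.2 (SD, n = 4). On the log2 scale it was higher by 0.28 with an SE of 0.04 (limma adjusted p = 0.000147). The spread between libraries was small, 4.29% of the mean in WT, where counting alone gives 2.90%. The change was called without any one library (log2 fold change 0.26 to 0.30) but not without the mean-variance trend (limma adjusted p = 0.0846). The rise was modest in size, since 1219 of the 1607 called genes had a larger change.

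Set against Adrb1, the receptor it opposes, Chrm2 had 7.92, 6.80, 7.30 and 9.44 normalized reads per read of Adrb1 in WT against 8.41, 9.40, 9.59 and 8.901 in Mettl3 KO libraries. The highest WT library reached into the Mettl3 KO range, so that this ratio did not separate the genotypes. A microRNA gene, Mir490, lies within Chrm2 on the same strand (3 to 10 per library), and 9330158H04Rik overlaps it on the other strand (42 to 59). Reads that overlapped several genes on the same strand had been left out of the counts, which bears on Mir490, and reads were assigned by strand. Neither gene was called.

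M2 receptors are dense in atria, and genes of atrial cardiomyocytes were higher in the Mettl3 KO libraries, so they are given beside Chrm2. All 4 atrial genes were called as higher by limma, but limma voom called 3 of them, without Bmp10 (adjusted p = 0.543), and without the mean-variance trend none was called (limma adjusted p = 0.05 to 0.297). Nppa, which encodes atrial natriuretic peptide and also rises in stressed ventricles, had 282, 243, 175 and 292 in WT against 452, 410, 508 and 481 in Mettl3 KO libraries. Myl7, the atrial myosin light chain, had 26, 21, 0 and 23 in WT against 23, 65, 90 and 119 in Mettl3 KO libraries. Sln, encoding the atrial calcium pump inhibitor sarcolipin, had 12, 6, 0 and 4 in WT against 10, 34, 29 and 64 in Mettl3 KO libraries. The call of Myl7 was lost without any one of Mettl3 KO libraries 2, 3 and 4 (limma adjusted p of up to 0.117). Mettl3 KO library 1 had Myl7 and Sln within the WT range and Bmp10 at 0, and it also had the highest Chrm2 value of all libraries, 1446. With the atrial genes other than Nppa as a covariate (the mean log2 value of Myl7, Sln and Bmp10), limma called both receptors. Chrm2 had a log2 fold change of 0.30 (limma adjusted p = 0.0049). Adra1a had one of -0.77, over 1.5 times its value without the covariate (limma adjusted p = 0.00274). The part of atrial tissue in either result was not tested.

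**Figure D3:**
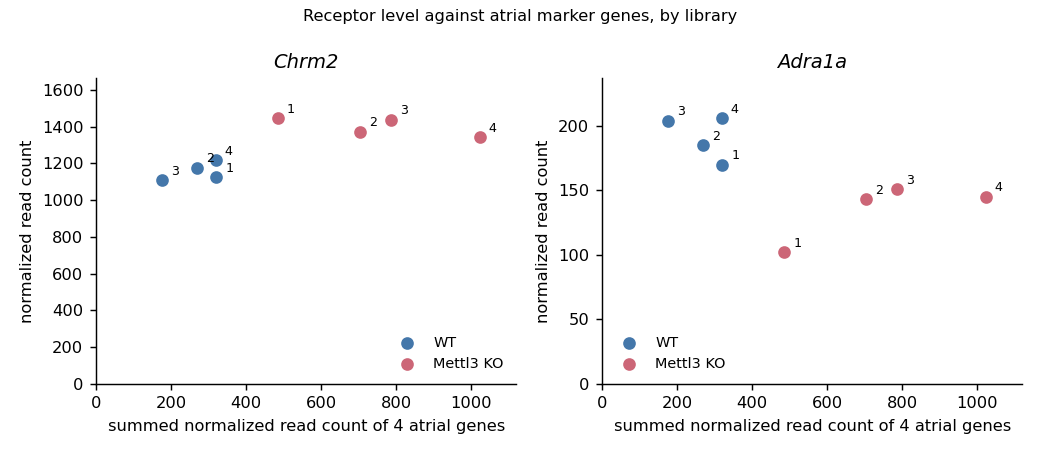
Normalized read count of Chrm2 (left) and Adra1a (right), vertical axes starting at 0, against the summed normalized read count of 4 atrial genes (horizontal axes). Each point is a library with its replicate number, WT in blue and Mettl3 KO in red. Within the Mettl3 KO group the library with the lowest atrial sum, 485, has the highest Chrm2 value and the lowest Adra1a value.

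Agtr1a (ENSMUSG00000049115, mm39 chr13:30520424-30566850, plus strand), the type 1 angiotensin II receptor, had 191, 166, 198 and 165 in WT against 175, 146, 143 and 164 in Mettl3 KO libraries. Mettl3 KO library 1 lay inside the WT range, library 4 lay 1 below its lowest value, and libraries 2 and 3 lay further below. The log2 fold change of -0.20 (95% interval -0.38 to -0.02) did not pass the test over all genes (limma unadjusted p = 0.0326, adjusted p = 0.189). With the atrial genes as a covariate it was -0.02 (limma adjusted p = 0.97). The mouse has a closely related gene, Agtr1b, which was not found among the listed genes. Reads that map to both would have been removed, and how many Agtr1a lost in this way was not measured.

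Ednra and Ednrb encode the endothelin receptors. Ednra (ENSMUSG00000031616, mm39 chr8:78389660-78451093, minus strand), found on smooth muscle cells, fibroblasts and cardiomyocytes, had 306, 261, 311 and 299 in WT against 297, 261, 270 and 290 in Mettl3 KO libraries. The Mettl3 KO values lay within the WT range. The log2 fold change was -0.07 (95% interval -0.21 to 0.07, limma adjusted p = 0.624). It was -0.04 without WT library 3 or without Mettl3 KO library 2 and -0.13 without WT library 2, and its sign turned with the atrial genes as a covariate (0.03), so no direction can be given.

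Ednrb (ENSMUSG00000022122, mm39 chr14:104052061-104081838, minus strand), which in vessels is carried mainly by endothelial cells, had 161, 143, 203 and 182 in WT against 146, 154, 124 and 163 in Mettl3 KO libraries. The groups overlapped, and only Mettl3 KO library 3 lay below the lowest WT library. The log2 fold change of -0.22 (95% interval -0.44 to -0.01) did not pass the test over all genes (limma unadjusted p = 0.0376, adjusted p = 0.206). Leaving out a library gave -0.31 (without WT library 2, limma adjusted p = 0.0865) to -0.14 (without WT library 3), with -0.15 without Mettl3 KO library 3, and the atrial genes as a covariate gave -0.11. Ednrb also varied most within WT, by 15.1% of its mean where counting alone gives 7.52%. Reads of Ednra per read of Ednrb were 1.53 to 1.90 in WT and 1.70 to 2.18 in Mettl3 KO libraries, which overlap.

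**Figure D4:**
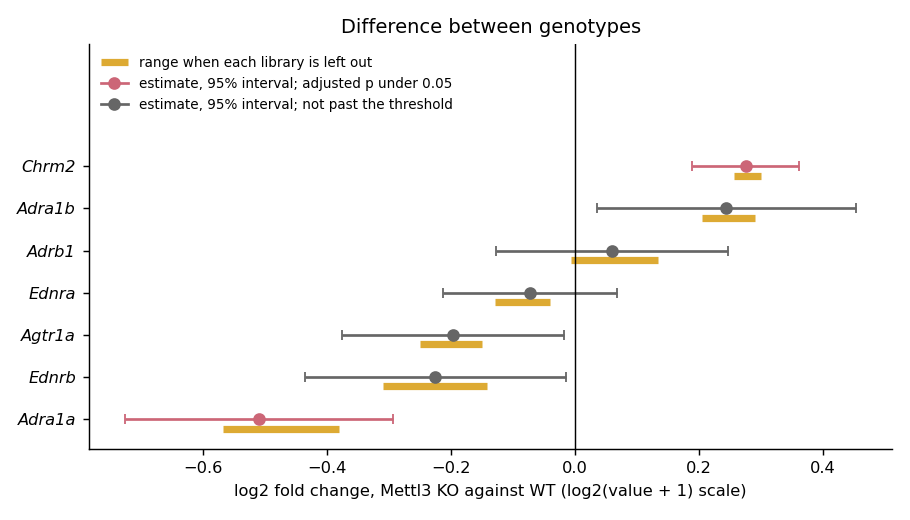
Log2 fold change between Mettl3 KO and WT (horizontal axis, log2(value + 1) scale) of each receptor, with its 95% interval per gene, unadjusted, in red where the adjusted p is under 0.05. The orange bars give the range of the estimate when each of the 8 libraries is left out in turn. They stay on one side of 0 for all but Adrb1.

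The receptors are spread over several cell types, and marker genes of some of these differed between the genotypes. Of 6 fibroblast genes 5 were called higher, with a sum of 2396 to 2678 in WT and 3064 to 3393 in Mettl3 KO libraries. Of 6 endothelial genes 3 were called lower, with a sum of 4582 to 4733 in WT and 3968 to 4311 in Mettl3 KO libraries. Of 7 smooth muscle and pericyte genes 1 was called, Abcc9, which was lower (2105 to 2302 in WT, 1826 to 1980 in Mettl3 KO libraries) and which cardiomyocytes also express. Abcc9 holds most of the sum of these genes, 3253 to 3641 in WT and 3051 to 3184 in Mettl3 KO libraries, and 4 of the 7 had an unadjusted p under 0.05, 2 higher and 2 lower. The 6 cardiomyocyte genes, 5 macrophage genes and 4 Schwann cell genes had 0 calls by limma and by limma voom, with 1, 0 and 0 at an unadjusted p under 0.05. The cardiomyocyte sum was 11851 to 12839 in WT and 11933 to 13289 in Mettl3 KO libraries, which overlap. The part of cell type shares in the values of Adra1a, Agtr1a, Ednra, Ednrb and the other receptors was not tested.

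To place the receptors in their signalling, 112 further genes were listed by role, of which 101 were in the table and 99 were tested. Of these 6 were called higher and 4 lower (10.1%), close to the 7.91% of all genes tested, and their median log2 fold change was -0.01. The share over all genes was 12.2% where only those with a mean of at least 10 were fitted. The other receptors of these families were scarce. Of 13, 7 were in the table and 6 tested, none had a value above 37 in any library, and 0 were called by limma or by limma voom, with 1 at an unadjusted p under 0.05. That was Mas1, the receptor for angiotensin 1-7, named after its values were seen. It had 13, 11, 5 and 7 in WT against 4, 4, 3 and 2 in Mettl3 KO libraries, with a log2 fold change of -1.19 (limma adjusted p = 0.0518).

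Of 16 genes tested for ligands and the enzymes and carriers that handle them, 1 was higher and 1 lower. Edn3, which encodes endothelin 3, a ligand that binds the Ednrb receptor more tightly than Ednra, had 2, 6, 1 and 1 in WT against 6, 9, 20 and 12 in Mettl3 KO libraries. The values were low, at under 3 reads in 3 WT libraries, and the groups touched at 6. On the log2 scale the rise was 1.96 with an SE of 0.44 (limma adjusted p = 0.00628), and without Mettl3 KO library 3 the adjusted p was 0.0519. With the atrial genes as a covariate Edn3 was not called (log2 fold change 1.00, limma adjusted p = 0.477). At such values the fitted change depends on the pseudocount. Maob, a monoamine oxidase that breaks down amines, had a log2 fold change of -0.29 (limma adjusted p = 0.0372). Its groups overlapped, and it was called in only 2 of the 8 fits that leave out a library. With the atrial genes as a covariate it was not called (-0.10, limma adjusted p = 0.767).

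Of 22 G protein subunits 2 were higher and 1 lower. The higher pair were the alpha subunits of the G12 and G13 family, to which receptors such as those for angiotensin II and endothelin also couple. Gna12 had 409, 393, 423 and 384 in WT against 522, 453, 501 and 446 in Mettl3 KO libraries (a rise of 0.25 on the log2 scale with an SE of 0.06, limma adjusted p = 0.00819). Gna13 had 292, 287, 332 and 309 in WT against 418, 356, 406 and 381 in Mettl3 KO libraries (a rise of 0.35 on the log2 scale with an SE of 0.06, limma adjusted p = 0.000951). Both were apart between the genotypes and were called without any one library, and with the atrial genes as a covariate Gna12 was 0.41 (limma adjusted p = 0.00379). Gng7, a gamma subunit, had 15, 7, 6 and 2 in WT against 1, 0, 0 and 6 in Mettl3 KO libraries (limma adjusted p = 0.0478). It was called in only 5 of 19 alternatives, and not with limma voom (adjusted p = 0.0742 on the values), and values this low rest on few reads. The alpha subunits of Gs, Gi and Gq were among the 19 not called.

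Of 27 effectors 2 were higher and 1 lower. At an unadjusted p under 0.05 by limma there were 9, of which 3 were higher and 6 lower. Kcnj5, which encodes a subunit of the potassium channel that M2 receptors open, had 407, 416, 384 and 341 in WT against 498, 465, 442 and 486 in Mettl3 KO libraries. Like Chrm2 it was higher in every Mettl3 KO than in any WT library (a rise of 0.29 on the log2 scale with an SE of 0.06, limma adjusted p = 0.00449), and with the atrial genes as a covariate it was 0.33 with a larger SE of 0.10 (limma adjusted p = 0.0533). Its partner subunit in the channel, Kcnj3, had a log2 fold change of the other sign and was not called (-0.14, limma adjusted p = 0.29). Adcy5, an adenylyl cyclase that Gs stimulates and Gi inhibits in cardiomyocytes, had 506, 519, 544 and 523 in WT against 629, 600, 631 and 543 in Mettl3 KO libraries. Its groups overlapped by 1 read count (543 against 544), with a log2 difference of 0.20 and an SE of 0.05 (limma adjusted p = 0.0232) that was called in 2 of the 8 fits without a library. Plcb4, a phospholipase C beta, was lower by little, with 1061 to 1101 in WT and 971 to 1007 in Mettl3 KO libraries (limma adjusted p = 0.038), and was called in only 1 of those fits.

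Of 28 regulators 1 was higher and 1 lower. Grk5, a kinase that phosphorylates active receptors, beta-1 among them, and ends their signalling, had 353, 336, 383 and 322 in WT against 487, 463, 460 and 496 in Mettl3 KO libraries. The groups were far apart, and the rise was 0.45 on the log2 scale with an SE of 0.06 (limma adjusted p = 2.5e-05). It was called without any one library and also without the mean-variance trend. Akap5, a scaffold that holds protein kinase A and calcineurin near beta receptors and calcium channels, had 100, 100, 73 and 93 in WT against 57, 64, 45 and 54 in Mettl3 KO libraries. All Mettl3 KO libraries lay below the lowest WT library, with a log2 difference of -0.72 and an SE of 0.13 (limma adjusted p = 0.000879), and it was called without any one library. Without the mean-variance trend the calls of the other 9 of these 10 signalling genes were lost (limma adjusted p = 0.059 to 0.27). With the atrial genes as a covariate Gng7 (-2.38, limma adjusted p = 0.17) and Plcb4 (-0.17, limma adjusted p = 0.113) had larger changes with larger SEs and were not called, and Adcy5 was 0.32.

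**Figure D5:**
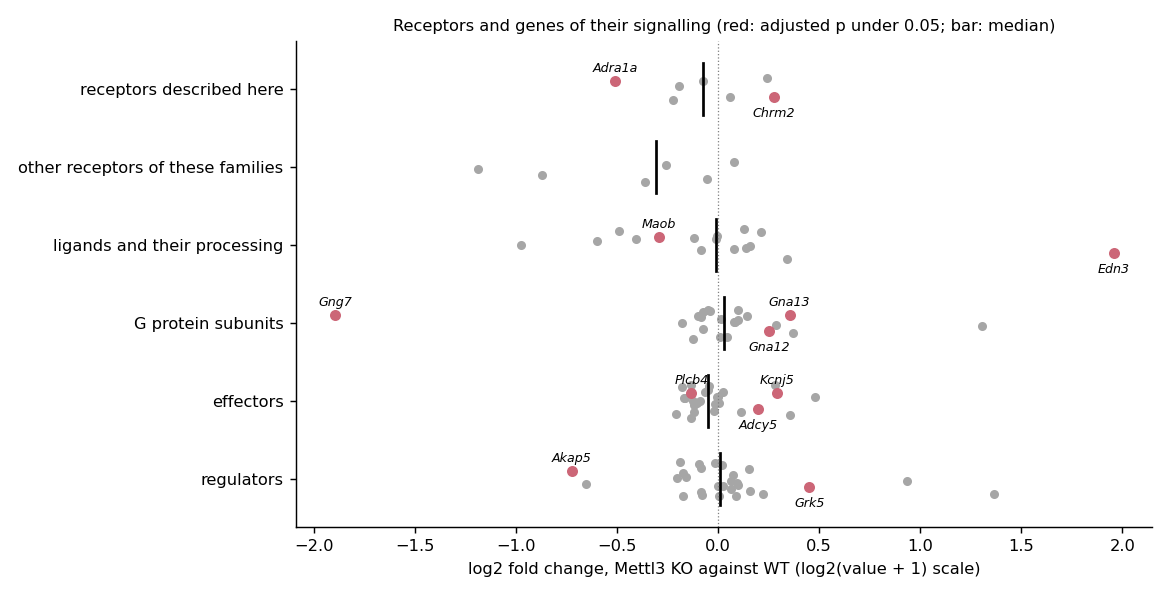
Log2 fold change between Mettl3 KO and WT (horizontal axis, log2(value + 1) scale) of the 7 receptors and of 99 genes of their signalling in 5 lists (rows). Each point is a gene, red and named where the adjusted p is under 0.05, and black bars are list medians, which lie between -0.31 and 0.03.

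The genes whose log2 values over the 8 libraries were most like those of the called receptors were found among 12026 genes whose mean was 20 or more. For Adra1a these were Slc47a1, a transporter of organic cations (Pearson r = 0.991), Calr3, a calreticulin (0.983), and Pink1, a mitochondrial kinase (0.978), and 18 genes had r above 0.95. Slc47a1 had 196, 212, 225 and 227 in WT against 119, 161, 161 and 158 in Mettl3 KO libraries, so that, as for Adra1a, Mettl3 KO library 1 was the lowest of all. For Chrm2 they were Timm17a, a subunit of the mitochondrial import machinery (0.992), Dusp27 (0.990) and Mrpl46, a mitochondrial ribosomal protein (0.988), and 71 genes had r above 0.95. Timm17a had 352, 370, 337 and 396 in WT against 559, 501, 559 and 521 in Mettl3 KO libraries. These correlations are descriptions over 8 libraries that fall into 2 genotypes, so a gene that differs between the genotypes in the same direction tends to score high.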

How the data were processed

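Stranded total RNA libraries of hearts (4 WT, 4 Mettl3 KO) had been sequenced as single-end reads of 72 bases. As its methods state, the authors used Trimmomatic 0.39 for trimming, aligned reads to mm39 with STAR 2.7.11a, removed duplicates with Picard 3.1.1 and multi-mapping, ribosomal and mitochondrial reads, counted exons by strand with featureCounts 2.0.4 and normalized with DESeq2 1.36.0. The deposited values are a score, normalized counts that the authors rounded to whole numbers, so DESeq2 and edgeR were not run on them. Genes that share reads with a near-identical copy therefore have values that are too low.

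Log2(value + 1) of genes whose mean reached 1 was fitted in R 4.3.3 by limma 3.58.1, using a mean-variance trend, genotype as the only term and p adjusted by Benjamini-Hochberg, two-sided. A fold change on this scale understates the change of low genes. The factor and reads of each library were recovered from the spacing of low values. Simulated data gave every gene the same spread beyond counting (dispersion 0.005) and no library that stood apart, so the rates hold for that setting. There the fit recovered 58.5% of 200 genes given a log2 change of 1. Of the 114 with a mean of at least 20 it recovered 96.5%. Of the genes called there, 1.68% had not been changed. In a separate simulation with nothing changed the fit called 0 genes, which says nothing of smaller changes.

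Members and lists were chosen with earlier results of these data known. Named were the receptors, called genes of the signalling lists, the atrial genes and the 3 genes most alike to each called receptor. Replicate numbers were the labels' own. Same-numbered libraries deviated together with correlations of -0.04 to 0.09, so they were not treated as pairs. Alternatives were other scalings, pseudocounts of 0.5 and 5, other filters, limma voom on the values and on the recovered reads, no trend, a replicate block, an atrial covariate and each library left out. The atrial covariate was the mean log2(value + 1) of Myl7, Sln and Bmp10, while the atrial sums also hold Nppa. Expression coordinates are those of the table. Exon lengths came from a GRCm38 annotation matched by gene identifier.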

Additional observations from a re-analysis of the deposited data

Results flagged for a closer look

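In 3 of 54 groups of 4 libraries (27 named genes), 1 library stood apart from the other three, the gap to its nearest neighbour taking up an unusually large share of the group's range by Dixon's 95% critical value. Chance marks about 1 in 20 groups, or 2.7 here. Adra1a in Mettl3 KO library 1 was at 102 against 143 to 151 (share of the range 0.837). That library also stood apart from its group over all genes. Slc47a1 in the same library was at 119 against 158 to 161 (0.929), and this gene was chosen for its likeness to Adra1a. Gng7 in Mettl3 KO library 4 was at 6 against 0 to 1 (0.833), where a few reads decide the value.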

How the results depend on the processing

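Over 20 alternatives, 133 of 140 receptor values kept their direction and their side of the threshold. Each alternative gave a count of called genes and a count of called receptors, and 34 of these 40 counts were within 1.5 times the reported ones. The receptors' median moved by less than 0.0731, its SD between libraries of one genotype, in 18 of 20. Chrm2 and Adra1a were called in 18 of 20. Without the mean-variance trend neither was (Adra1a -0.51, Chrm2 0.28, 0 of the 7 receptors, 321 genes called in all). With the atrial genes as a covariate, Ednra and the receptors' median log2 fold change both turned to 0.0277 and Myl7, itself part of the covariate, to -0.69, and 903 genes were called. Leaving out each library gave 1019 to 1596 called genes, the fewest without Mettl3 KO library 3, and -0.0066 to 0.13 for Adrb1, which turned below 0 without WT library 4. An alternative chosen after seeing the data set Mettl3 KO library 1, the one with Bmp10 at 0, alone against WT, assuming that it varies like the WT libraries. It gave -0.90 for Adra1a (limma adjusted p = 0.0878), 0.32 for Chrm2 (limma adjusted p = 0.125), 0.0167 for both Ednra and the median, 8 called genes and 0 called receptors, with fewer samples. The cause of the other shifts was not tested.

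With the replicate number as a block, 1346 genes and 2 receptors were called, and Maob, Gng7 and Plcb4 were not. Same-numbered libraries did not deviate together in every pair, so the pairing rests on a number alone. Depth limits the genes with values of a few reads, such as Edn3 and Gng7.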
